A study of Mus musculus with 18 samples.

Results

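All 18 arrays of the study were used for a single contrast, the difference between Dusp5 knockout and wild-type cells averaged over every time at which RNA was taken. The 9 knockout arrays stood against 9 wild-type arrays, 3 at each of 0, 1 and 3 h, and each time had equal weight in the mean. The cells were primary embryonic fibroblasts of the C57BL/6 strain, male in both genotypes, prepared from knockout and wild-type littermates at embryonic day 13.5. The groups labelled as knockout of DUSP5 were collected without the phorbol ester TPA (0 h) or after 1 or 3 h of TPA at 100 ng/ml. The wild-type groups were collected at the same times and doses. No group received solvent alone. The sources used here do not give the number of embryos behind each genotype. The effect of the allele and differences between the embryos that gave the cells cannot be told apart. Nor do the labels say whether the 3 arrays of a group came from separate cultures, so p-values measure no more than the spread among these arrays, part of which may be technical.

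DUSP5 is a phosphatase of the cell nucleus that removes the activating phosphates from the kinases ERK1 and ERK2 and holds them there. TPA stands in for diacylglycerol, switches on protein kinase C and through it the Ras, Raf, MEK and ERK cascade. Active ERK drives the quick transcription of Egr, Fos and Jun factors, of proteases and cytokines, and of its own inhibitors, DUSP5 among them. Fibroblasts growing in serum have some ERK activity without TPA, and passage through the cell cycle also draws on this pathway.

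A probe was kept if it was detected on at least 3 arrays (detection p-value below 0.05), and the brightest kept probe stood for each of 10902 genes. Levels are log2 of the background-corrected, quantile-normalized intensity, and differences are knockout minus wild type on that log2 scale. Between 16705 and 17813 probes were detected on the knockout arrays and between 16675 and 18348 on the wild-type arrays. Mean raw intensity lay between 235.7 and 313.5 in knockout and between 262.3 and 357.1 in wild-type arrays. Of 11 fibroblast markers 10 were detected on all 18 arrays, the exception being Lum. Of 7 macrophage and blood markers on the array, 3 were detected on all 18 arrays (Csf1r, Adgre1 and C1qa) and 3 on none, Ptprc among them. Their levels were low, with Csf1r, the brightest of the 3, at a mean of 5.42 in knockout and 5.30 in wild-type cells (log2). Of 5 endothelial markers none was detected on all arrays, Cldn5 was detected on none, and Kdr on 8 of 9 knockout and 6 of 9 wild-type arrays. Of 6 epithelial markers Krt18 was detected on all 18 arrays, Cdh1 on 8 of 9 knockout and 7 of 9 wild-type arrays, and Epcam and Krt5 on none. Of 4 muscle markers Acta1 was detected on all 18 arrays, Mylpf on 9 of 9 knockout and 7 of 9 wild-type arrays, and Myod1 on none. The cartilage markers Sox9 and Col2a1 were detected on all 18, whereas Sox10 of glia and all 3 liver markers were detected on none. The part of such cells in the differences was not tested. Xist, which is transcribed from the inactive X chromosome of females, was detected on no array, and the Y-linked Eif2s3y and Kdm5d were detected on all 18. Of the total sum of squares over the tested genes, time accounted for 48.5%, genotype for 10.9%, genotype by time for 7.04% and the spread within groups for 33.5%. These shares are not adjusted for degrees of freedom, so the spread among arrays also adds to the first 3.

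**Figure D1:**
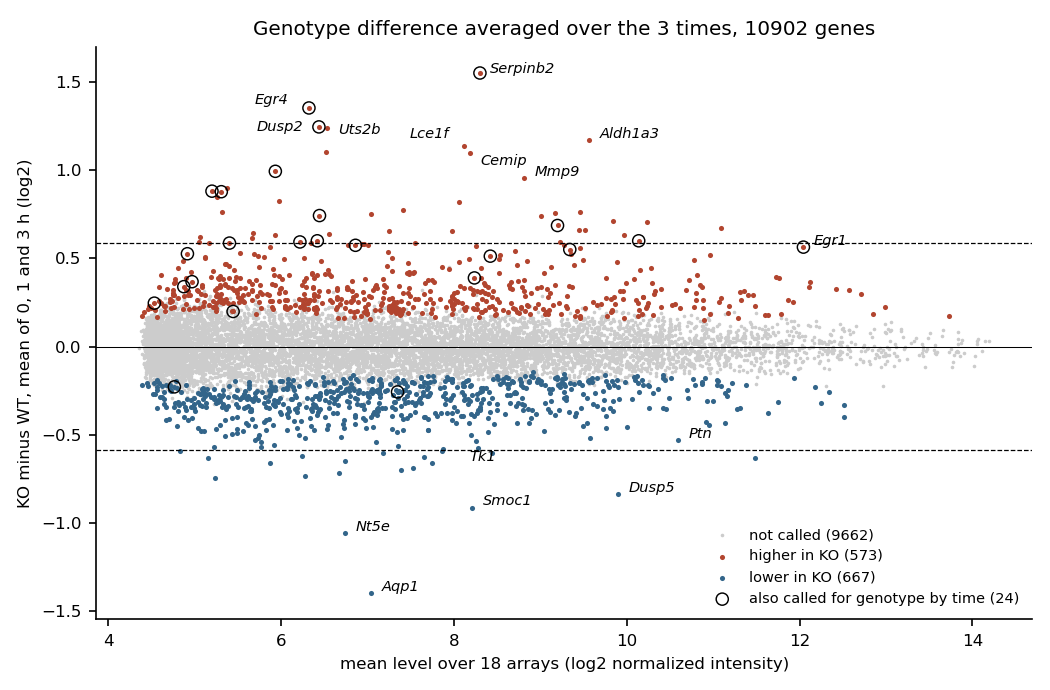
Mean difference between knockout and wild type (vertical axis, log2) against the mean level of the gene over 18 arrays (horizontal axis, log2 normalized intensity), 1 point for each of 10902 genes. Red and blue points were called higher and lower in knockout cells, circles mark the 24 genes also called for genotype by time, and dashed lines mark a 1.5-fold difference. Most called genes lie between the dashed lines.

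The lasting difference was broad and mostly small. At a Benjamini-Hochberg adjusted p below 0.05 in limma, 1240 genes were called, which is 11.4% of those tested. Of these, 573 were higher in knockout cells (5.26% of genes tested) and 667 were lower (6.12%). The median called gene differed by 1.22-fold, and 1174 of the 1240 differed by less than 1.5-fold. Only 66 genes (0.605%) were called with a difference of at least 1.5-fold, 46 higher and 20 lower, and 10 reached 2-fold, 8 higher and 2 lower. The split into higher and lower depends on how the arrays are scaled to each other. When arrays were set to a common median over all probes, the median gene lay at -0.16 (log2) and 3675 genes were called. Of these 141 were higher (3.84%) and 3534 lower. With a common median over tested genes 1944 were called, 1383 higher (71.1%, against 46.2% here) and 561 lower. Averaging over 9 arrays a side gave a median standard error of 0.069 (log2), against 0.119 for the difference at a single time.

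At each time the 3 knockout arrays could lie wholly above or wholly below the 3 wild-type arrays. This was so at all 3 times, in the same direction, for 381 genes (3.49% of those tested), of which 371 were also called. The 371 held 54 of the 66 genes past 1.5-fold and 317 with smaller differences. For 104 genes (0.954%) all 9 knockout arrays lay on one side of all 9 wild-type arrays whatever the time, above them for 46 genes and below them for 58.

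Whether the difference changed with time was tested on its own. Genotype by time was called for 29 genes (0.266% of those tested), and 916 had an unadjusted p below 0.05. Of the 1240 genes called for the mean, 24 were also called for genotype by time, 22 of them higher in knockout cells. For the other 1216 no change over time was called, which does not show that there was none, since the 95% interval of a change between 0 and 3 h typically reached 0.35 (log2) to either side. TPA itself, as the mean of both genotypes, was called for 3045 genes (27.9%). Among the 1240 genes it was called for 635 (51.2%), so 605 had a genotype difference with no called TPA response, and it was called for 52 of the 66 genes past 1.5-fold. The same 18 arrays gave all of these contrasts.

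The targeted gene was lower in the knockout arrays without being undetected. Dusp5 read 8.36, 8.28 and 8.31 in knockout against 9.18, 9.21 and 9.22 in wild-type cells at 0 h (log2 level on each array). At 1 h it read 10.04, 10.20 and 10.31 in knockout against 11.07, 11.16 and 11.23 in wild-type cells, and at 3 h 9.87, 9.93 and 10.03 against 10.59, 10.71 and 10.49. Every knockout array lay below every wild-type array of its time. The mean difference was -0.84 ± 0.05 (log2, standard error, n = 9 arrays a side, limma adjusted p = 1.20e-09), so that knockout signal was 56.0% of wild type (95% interval 51.9 to 60.5). The sources used here do not place the probe inside or outside the deleted sequence, and the level checks the genotype labels only in part.

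**Figure D2:**
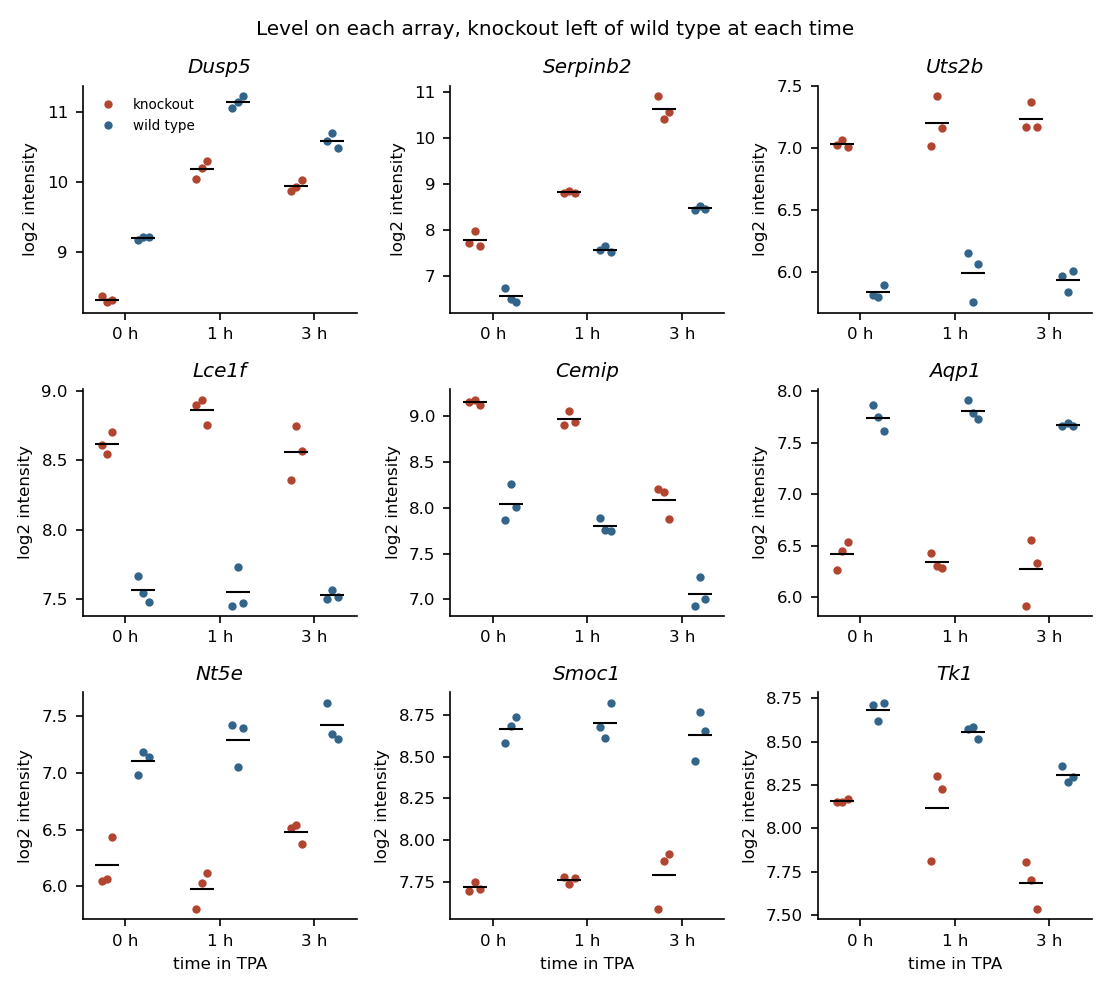
Level of 9 genes on each of the 18 arrays (vertical axes, log2 normalized intensity, scaled separately for each gene) by time in TPA, with knockout points left of wild-type points and a line at the mean of each 3 arrays. In each of the 9 genes the 3 knockout arrays lie on one side of the 3 wild-type arrays at every time. Uts2b, Lce1f, Cemip, Aqp1, Nt5e and Smoc1 were chosen from genes with this separation, which 3.49% of all genes tested had.

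Among genes higher in knockout cells the widest mean difference was in Serpinb2, the gene of plasminogen activator inhibitor 2. At 0 h it read 7.72, 7.98 and 7.64 in knockout against 6.73, 6.48 and 6.42 in wild-type cells (log2 level on each array). At 1 h the values were 8.80, 8.85 and 8.80 in knockout against 7.55, 7.65 and 7.51 in wild-type cells, and at 3 h they were 10.92, 10.41 and 10.56 against 8.43, 8.53 and 8.44. The groups were apart at every time, and the gap was wider at 3 h than before. The mean difference was 1.55 ± 0.07 (log2, adjusted p = 9.65e-12, n = 9 arrays a side), or 2.93-fold. It was 1.24 at 0 h, 1.25 at 1 h and 2.17 at 3 h, and genotype by time was called (adjusted p = 0.0103).

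Uts2b, which encodes a urotensin-related vasoactive peptide, held an almost constant gap. Its levels were 7.01 to 7.42, with a median of 7.16, on the 9 knockout arrays and 5.75 to 6.15, with a median of 5.89, on the 9 wild-type arrays (log2). No knockout array reached down to the wild-type range. The differences at 0, 1 and 3 h were 1.20, 1.22 and 1.30, the mean was 1.24 ± 0.07 (log2, adjusted p = 5.65e-11), and TPA moved the gene little (0.15 at 3 h as the mean of both genotypes).

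The 12 largest higher genes with groups apart at each time also held members of the cornified envelope. This is the cross-linked protein shell of the outer skin cell. Lce1f, a late cornified envelope protein, ranged from 8.36 to 8.94 (median 8.70) in knockout against 7.45 to 7.73 (median 7.51) in wild-type arrays (log2 level). Ivl, the envelope precursor involucrin, ranged from 6.86 to 7.34 (median 7.06) in knockout against 5.68 to 6.28 (median 5.99) in wild-type arrays. Neither gene had any overlap between the 9 arrays of each genotype, and the mean differences were 1.13 ± 0.06 and 1.10 ± 0.06 (log2, adjusted p = 8.30e-11 and 2.94e-10). The related Lce1g was higher by 0.85 ± 0.11. Another kept probe of Ivl was also called higher.

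Cemip, Aldh1a3 and Mmp9 were also among the 12 largest higher genes with groups apart at each time. Cemip, a protein needed for the breakdown of hyaluronan, ranged from 7.88 to 9.18 (median 8.94) in knockout against 6.93 to 8.26 (median 7.76) in wild-type arrays (log2 level). TPA lowered the gene in both genotypes (-1.02 at 3 h as their mean), and the ranges over all times overlapped. The genotype difference was 1.11, 1.17 and 1.02 at 0, 1 and 3 h (mean 1.10 ± 0.07, adjusted p = 4.27e-10). Aldh1a3, which makes retinoic acid from retinaldehyde, was higher by a mean of 1.17 ± 0.05 (log2, adjusted p = 9.65e-12), with 1.02, 1.02 and 1.47 at the 3 times. Mmp9, a gelatinase, was higher by 0.95 ± 0.06 (adjusted p = 2.39e-09), with 0.87, 0.94 and 1.05. Among the rest of these 12, Igfbp2, which binds insulin-like growth factors, was higher by 0.83 ± 0.07 and the Notch target Hey1 by 0.77 ± 0.07. Parm1 was higher by 0.82 ± 0.05 and Tmem267 by 0.90 ± 0.09, and in all 4 the 9 knockout arrays lay above the 9 wild-type arrays.

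Aqp1, a water channel of the cell membrane, was the gene furthest below wild type. At 0 h it read 6.26, 6.45 and 6.54 in knockout against 7.86, 7.75 and 7.61 in wild-type cells (log2 level on each array). At 1 h it read 6.43, 6.31 and 6.28 in knockout against 7.92, 7.79 and 7.73 in wild-type cells, and at 3 h 5.92, 6.56 and 6.34 against 7.67, 7.69 and 7.66. All knockout values lay more than a log2 unit below the wild-type values of their time. The mean difference was -1.40 ± 0.07 (log2, adjusted p = 5.65e-11), so that knockout signal was 38.0% of wild type (95% interval 34.2 to 42.2), and both other kept probes of the gene were called lower as well.

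Nt5e, the ectoenzyme CD73 that makes adenosine from AMP outside the cell, ranged from 5.80 to 6.54 (median 6.12) in knockout against 6.98 to 7.62 (median 7.30) in wild-type arrays (log2 level). The mean difference was -1.06 ± 0.07 (adjusted p = 5.34e-09), and the 9 arrays of each genotype did not overlap. Smoc1, a calcium-binding matrix protein, was lower by a mean of -0.91 ± 0.06 (adjusted p = 1.26e-09), but its other kept probe gave -0.17 and was not called. Ccn5, a matricellular protein of the CCN family, differed by -0.72 ± 0.06 and Lpar1, a receptor for lysophosphatidic acid, by -0.65 ± 0.06. Trib2, a pseudokinase, differed by -0.70 ± 0.07, the zinc-finger factor gene Tshz3 by -0.69 ± 0.05 and Moxd1, a relative of dopamine beta-hydroxylase, by -0.66 ± 0.06. The Ras-like gene Diras2 differed by -0.75 ± 0.06 and was detected on 6 of 9 knockout and 9 of 9 wild-type arrays. Ccdc68 and the T cell receptor segment Trbv13-2, at -0.73 ± 0.07 and -0.66 ± 0.08, completed the 12 largest lower genes with groups apart at each time.

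**Figure D3:**
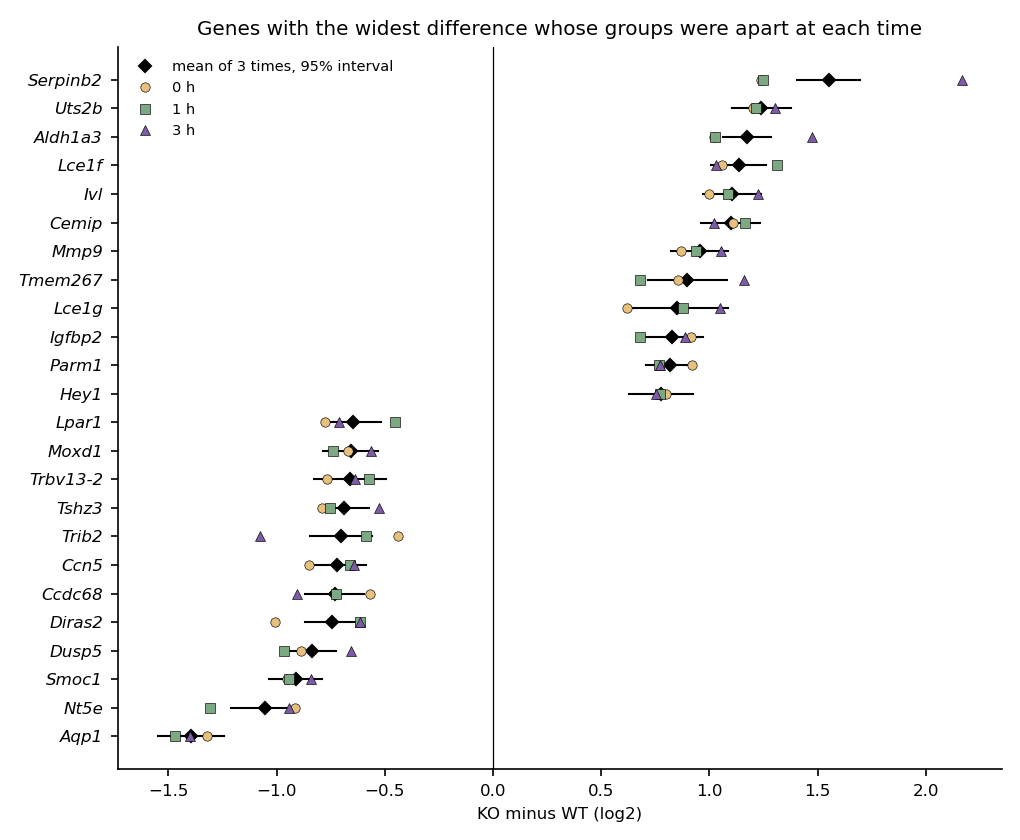
Genotype difference at 0, 1 and 3 h (coloured symbols) and its mean with a 95% interval (black diamonds and lines) for the 12 genes with the largest mean difference in each direction whose arrays were apart at each time (horizontal axis, knockout minus wild type, log2). The symbols of most genes lie close together, and Serpinb2 has its 3 h value at 2.17.

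Differences under 1.5-fold were also resolved. Ptn, the growth factor pleiotrophin, ranged from 10.18 to 10.51 (median 10.31) in knockout against 10.63 to 11.12 (median 10.84) in wild-type arrays (log2 level). Its mean difference was -0.53 ± 0.06 (adjusted p = 2.97e-06). H4c8, a histone H4 gene, ranged from 8.40 to 8.66 (median 8.56) in knockout against 7.78 to 8.16 (median 7.94) in wild-type arrays, a mean difference of 0.57 ± 0.05 (adjusted p = 8.42e-08). In both the 9 arrays of each genotype were apart, as they were for Krt20, a keratin (0.58 ± 0.05), and for Spdl1, a spindle checkpoint protein (-0.47 ± 0.05). Rab15, a small GTPase of endosome traffic, was higher by 0.52 ± 0.05 and Fam110c by 0.50 ± 0.05. Arsj, a sulfatase, differed by -0.50 ± 0.05 and Esm1, the proteoglycan endocan, by -0.58 ± 0.07. The groups of these 4 were apart at each time but not over all 9 arrays.

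Genes of the cell cycle and of DNA replication were lower together. Of 48 tested, 29 were called lower and none higher (60.4% called, against 11.4% of all genes tested), and 46 of the 48 lay below 0, against 52.4% of all genes tested. The median difference of the list was -0.23 (log2), against -0.01 over all genes. The mean level of the list was 7.89 to 8.04 on the knockout arrays (median 7.96) and 8.16 to 8.27 on the wild-type arrays (median 8.19), with no overlap. Genotype by time was called for none of the 48. In the alternatives tried between 24 and 42 members were called lower and none higher.

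Tk1, the thymidine kinase of S phase, read 8.15, 8.15 and 8.17 in knockout against 8.71, 8.62 and 8.72 in wild-type cells at 0 h (log2 level on each array). At 1 h it read 7.81, 8.30 and 8.23 in knockout against 8.57, 8.58 and 8.52 in wild-type cells, and at 3 h 7.81, 7.70 and 7.54 against 8.36, 8.27 and 8.30. The knockout arrays were lower at each time. Its mean difference was -0.53 ± 0.06 (adjusted p = 6.76e-06), although its other kept probe (-0.28) was not called. Ccne2, a cyclin of the entry into S phase, differed by -0.47 ± 0.05 (adjusted p = 1.19e-06) and Cdc6, which loads the replicative helicase, by -0.44 ± 0.07 (adjusted p = 3.65e-04). Uhrf1, which keeps DNA methylation through replication, differed by -0.46 ± 0.06 (adjusted p = 3.02e-05), with its other kept probe at -0.04 and not called. In RNA from whole cultures, fewer cells of a type and less RNA per cell cannot be told apart. Over all 10902 genes tested 5.26% were higher and 6.12% lower. The counts were 141 and 3534 with a common median over all probes and 1383 and 561 with one over tested genes. Among 15 inhibitors of the cycle and senescence genes 1 was higher and 4 lower (4 and 4 with a common median over tested genes). The CDK inhibitor gene Cdkn1c was at 0.45 ± 0.07 and the retinoblastoma relative Rbl1 at -0.48 ± 0.09. Of 24 p53 targets 4 were higher and 1 lower (0 and 5 with a common median over all probes), with Gadd45b at 0.34 ± 0.07 and the kinase gene Plk3 at 0.32 ± 0.07. The mean level of the p53 list was 8.25 to 8.27 on knockout and 8.19 to 8.20 on wild-type arrays at 0 h. At 3 h it overlapped, at 7.98 to 8.04 and 8.02 to 8.05.

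**Figure D4:**
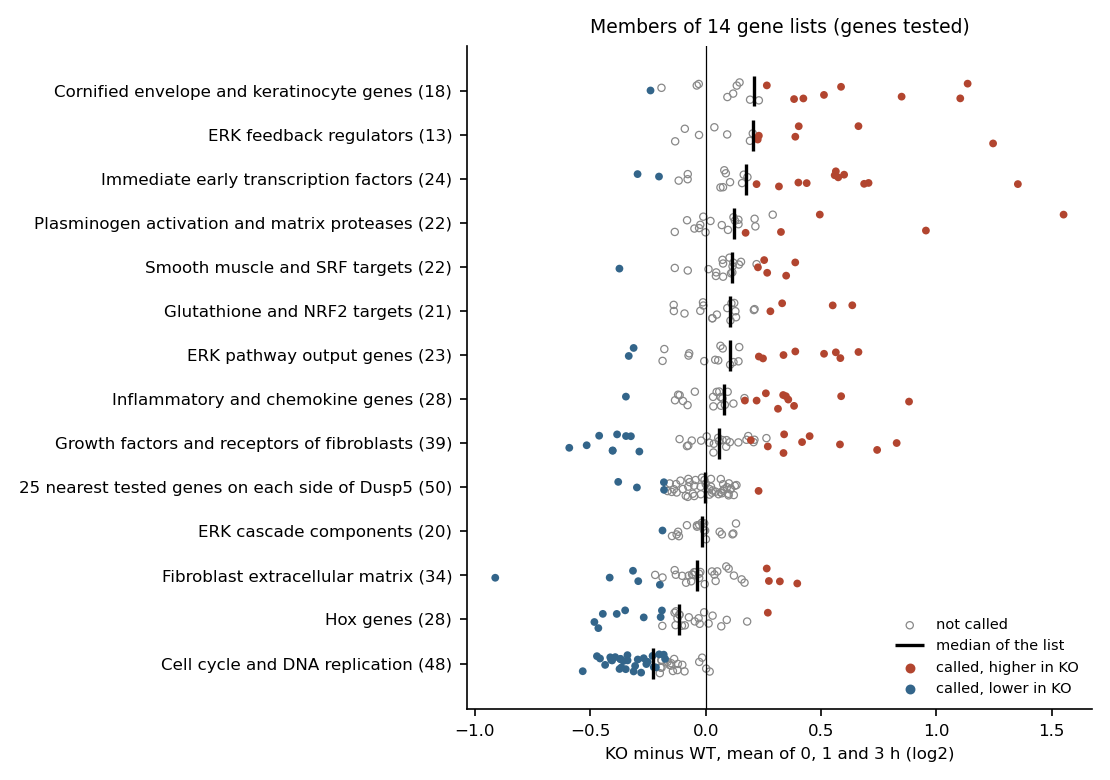
Mean genotype difference (horizontal axis, knockout minus wild type, log2) of each tested member of 14 gene lists, with the number of genes tested in brackets and the median of each list as a black bar. Filled points were called, red higher and blue lower in knockout cells. Cell cycle genes lie almost wholly below 0, with a median of -0.23, and the cornified envelope list has the highest median, 0.21.

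After quantile normalization, genes downstream of ERK were called higher more often than lower. The shares over all genes tested were 5.26% higher and 6.12% lower. With a common median over all probes 141 of all 10902 genes were higher and 3534 lower. Of 24 immediate early transcription factor genes, 11 were higher and 2 lower (10 and 5 with a common median over all probes), with a median difference of 0.17 (log2). Egr2, a zinc-finger factor, was the member with an even gap, ranging from 9.79 to 11.58 in knockout against 9.0 to 10.98 in wild-type arrays (log2 level). Its differences at 0, 1 and 3 h were 0.69, 0.67 and 0.76 (mean 0.71 ± 0.05, adjusted p = 1.74e-08). Klf2 and Klf4, Krueppel-like factors, were the 2 called lower, at -0.20 and -0.30, and both calls ended when any of several single arrays was left out. Of 13 feedback regulators of ERK, 6 were higher and none lower (3 and 2 with a common median over all probes), with a median of 0.20. Only 1 had groups apart at each time (3.49% of all genes). The mean level of the 13 overlapped at 0 h, at 7.69 to 7.85 on knockout and 7.61 to 7.73 on wild-type arrays. It was 8.72 to 8.78 against 8.47 to 8.53 at 1 h and 8.55 to 8.65 against 8.15 to 8.19 at 3 h. Dusp2, 1 of the 6, differed by 0.13 at 0 h and 2.35 at 3 h. Dusp4, another nuclear MAP kinase phosphatase, was higher by 0.66 ± 0.07 (adjusted p = 1.53e-06), with 0.54, 0.70 and 0.74 at the 3 times and all 3 of its other kept probes called. Dusp1, a phosphatase that also acts on p38 and JNK, was higher by 0.40 ± 0.05 and Spry4, a Sprouty inhibitor of receptor signalling, by 0.39 ± 0.09. At 0 h the knockout and wild-type arrays overlapped in both genes. Dusp1 then read 11.31 to 11.44 in knockout and 11.14 to 11.34 in wild-type cells, and at 1 h 11.73 to 11.91 and 11.03 to 11.26. Of 23 genes used as readouts of ERK output 8 were higher and 2 lower (4 and 5 with a common median over all probes; median 0.11), with the cytokine Lif at 0.58 ± 0.07. The mean level of these 23 was 7.69 to 7.77 on knockout and 7.65 to 7.67 on wild-type arrays at 0 h. At 3 h it was 8.49 to 8.50 against 8.26 to 8.31. Of 20 Ras, Raf, MEK and ERK cascade components none was higher and 1 was lower (0 and 6 with a common median over all probes; median -0.01).

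**Figure D5:**
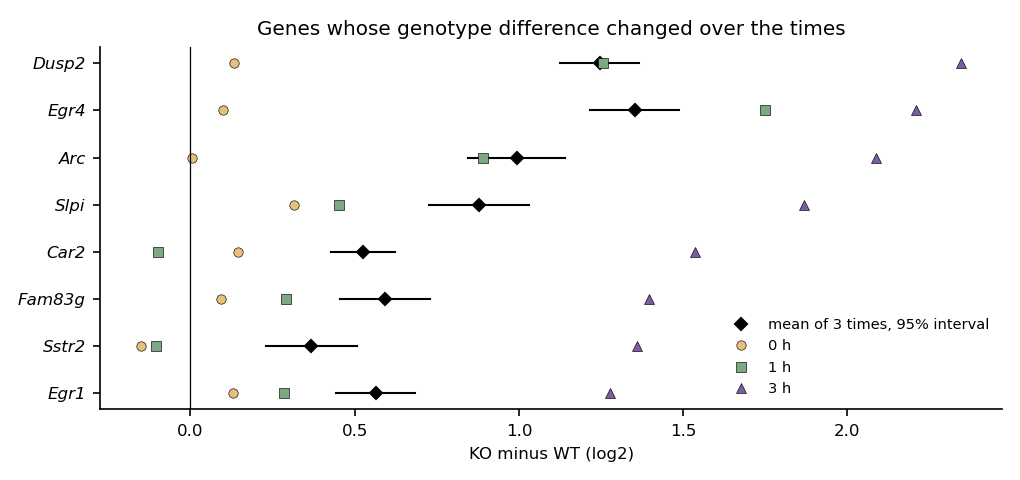
Genotype difference at 0, 1 and 3 h (coloured symbols) and its mean with a 95% interval (black diamonds and lines) for the 8 genes with the largest statistic for genotype by time among genes called for both tests (horizontal axis, knockout minus wild type, log2). All 8 have their largest value at 3 h, from 1.28 in Egr1 to 2.35 in Dusp2.

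A mean over 3 times can also arise from 1 time. In Dusp2, a nuclear ERK phosphatase of the same family, the mean difference was 1.25 ± 0.06 (log2), but the differences at 0, 1 and 3 h were 0.13, 1.26 and 2.35. Egr4 had 0.10, 1.75 and 2.21, and Arc, an early gene best known from neurons, 0.00, 0.89 and 2.09. Egr1 was called with a mean difference of 0.56 ± 0.06, made of 0.13, 0.28 and 1.28. Car2, a carbonic anhydrase, had 0.14, -0.10 and 1.54 and was detected on only 3 of 9 arrays in each genotype. Slpi, an inhibitor of leukocyte proteases, had 0.31, 0.45 and 1.87, Fam83g 0.09, 0.29 and 1.40, and Sstr2, a somatostatin receptor, -0.15, -0.11 and 1.36. Dusp2 was detected on 6 of 9 arrays in each genotype, Egr4 on 8 of 9 knockout and 5 of 9 wild-type arrays, Slpi on 8 and 6 and Sstr2 on 3 and 4. In these 8 genes the mean rests mostly on 1 or both of the treated times. Of the 24 genes called for both tests, 21 had their largest difference at 3 h.

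Protease, inflammatory and NRF2 target genes were called higher more often than lower after quantile normalization, and growth factor genes equally often each way. Over all genes tested 5.26% were higher and 6.12% lower. With a common median over all probes 141 of all 10902 genes were higher and 3534 lower, and with one over tested genes 1383 and 561. Of 22 plasminogen and matrix protease genes 5 were higher and none lower (3 and 3 with a common median over all probes), among them the stromelysin Mmp10 (0.49 ± 0.06) and the protease inhibitor Timp3 (0.33 ± 0.06). Of 39 growth factor and receptor genes 9 were higher and 9 lower (4 and 11 with a common median over all probes, 15 and 7 over tested genes). Pdgfb, a platelet-derived growth factor chain, was higher by 0.58 ± 0.07, though its other kept probe (-0.01) was not called. Fgf10, a growth factor of limb and lung buds, differed by -0.59 ± 0.08 and was detected on 2 of 9 knockout and 9 of 9 wild-type arrays. Of 28 inflammatory genes 10 were higher and 1 lower (4 and 5 with a common median over all probes), with the chemokine Ccl5 at 0.38 ± 0.08 and the macrophage growth factor Csf1 at 0.36 ± 0.08. None of the 10 had groups apart at each time, and genotype by time was called for 2 of the 28 (0.266% of all genes). Before TPA the mean level of this list overlapped, at 6.00 to 6.05 on knockout and 5.98 to 6.09 on wild-type arrays (log2). It was 6.76 to 6.86 against 6.53 to 6.59 at 1 h and 6.64 to 6.69 against 6.47 to 6.57 at 3 h. Of 21 glutathione and NRF2 target genes 4 were higher and none lower (2 and 4 with a common median over all probes). Hmox1, heme oxygenase, led them with 0.69, 0.58 and 0.64 at 0, 1 and 3 h (mean 0.64 ± 0.06, adjusted p = 2.64e-07).

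Hox genes were called lower more often than higher. Of 28 tested 8 were lower and 1 higher, with a median of -0.11 (log2), where 6.12% of all genes tested were lower and 5.26% higher. With a common median over all probes 15 were lower and none higher, and with one over tested genes 7 were lower and 2 higher. Over all 10902 genes these scalings called 3534 lower and 141 higher, and 561 lower and 1383 higher. Hoxa7 ranged from 7.89 to 8.38 (median 8.19) in knockout against 8.52 to 8.80 (median 8.63) in wild-type arrays (log2 level), without overlap. Its mean difference was -0.48 ± 0.06 (adjusted p = 5.70e-06), beside -0.47 ± 0.07 for Hoxa9, -0.45 ± 0.06 for Hoxa4 and -0.39 ± 0.05 for Hoxa5. The Hoxa5 arrays overlapped at 0 h (9.15 to 9.34 in knockout, 9.29 to 9.47 in wild type). At 3 h they read 8.53 to 8.75 against 9.26 to 9.35. Genotype by time was called for none of the 28. Hoxb2 was the member called higher (0.27), a call that ended without any of 4 single arrays. Of 31 limb, axial and body wall factors 2 were higher and 6 lower (6 and 5 with a common median over tested genes), with Sim2 at -0.54 ± 0.08 and the hindlimb factor Tbx4 at -0.45 ± 0.07. Of 29 BMP, Wnt and Hedgehog genes 4 were higher and 3 lower (1 and 14 with a common median over all probes), among them Bmp4 at -0.46 ± 0.08 and the Hedgehog effector Gli2 at -0.47 ± 0.08, whose other kept probe (0.05) was not called. Group means of Gli2 at 0, 1 and 3 h were 6.03, 6.16 and 5.29 in knockout against 6.35, 6.37 and 6.18 in wild-type cells.

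Matrix and cell surface genes went both ways after quantile normalization, and the balance moved with the scaling. Of 34 fibroblast matrix genes 4 were higher and 5 lower (1 and 10 with a common median over all probes, 7 and 3 over tested genes). Of all genes tested 5.26% were higher and 6.12% lower (141 and 3534 of 10902 over all probes, 1383 and 561 over tested genes). Fibronectin (Fn1) was higher by 0.40 ± 0.06 (log2, adjusted p = 8.56e-05) and tenascin C (Tnc) by 0.32 ± 0.06, whereas the collagen gene Col6a2 differed by -0.42 ± 0.07. Of 37 adhesion molecules 4 were higher and 4 lower (1 and 8 over all probes, 11 and 3 over tested genes), with the cadherins Cdh6 at 0.49 ± 0.08 and Cdh13 at -0.48 ± 0.08. Of 36 axon guidance genes 5 were higher and 5 lower (1 and 11 over all probes, 10 and 4 over tested genes), with Sema7a at 0.59 ± 0.06 and Sema3f at -0.39 ± 0.07. Of 22 smooth muscle and SRF target genes 5 were higher and 1 lower (0 and 3 with a common median over all probes). Myh11, smooth muscle myosin, was higher by 0.39 ± 0.07 and Des, the filament protein desmin, differed by -0.37 ± 0.06.

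The cornified envelope and keratinocyte list had 8 higher and 1 lower of 18 tested (median 0.21), with 6 and 2 under a common median over all probes and 12 and none over tested genes. The list was drawn up with the differences of Lce1f and Ivl known, so its count is no separate evidence of direction. The desmosome protein gene Pkp1 was higher by 0.59 ± 0.07. Of the 6 epithelial markers 3 were tested, Cdh1, Krt8 and Krt18, of which Krt18 alone was called and was lower (-0.24, a call that most single arrays could end). The mean level of the 18 genes was 5.48 to 5.75 on knockout arrays and 5.21 to 5.45 on wild-type arrays (log2). The hyaluronan (1 higher of 6), retinoid (2 higher of 13), extracellular nucleotide (1 higher and 2 lower of 12) and water channel (2 lower of 11) lists were drawn up in the same way, and few members beyond the genes already named were called.

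Some marker lists of other cell types were called more often than the 11.4% of all genes tested and others less often. Of 9 skeletal muscle genes 2 were higher (22.2% called), Acta1 at 0.27 ± 0.06 and Chrna1 at 0.25 ± 0.06. Of 11 cartilage and bone genes 2 were higher and 1 lower (27.3%), with collagen II (Col2a1) at 0.31 ± 0.06, Sox9 at 0.26 ± 0.06 and Sox5 at -0.52 ± 0.10. Nes, the filament protein nestin, was higher by 0.42 ± 0.06 and was 1 of 2 called among 7 neural and glial genes (28.6%). Of 14 macrophage and blood genes 1 was higher (7.14%), and of 12 lipid storage genes 3 were higher and 1 lower (33.3%). None of 7 endothelial, 4 liver, 4 germ cell and 3 sex chromosome genes was called by limma at an adjusted p below 0.05. With a common median over all probes 141 of all 10902 genes were called higher and 3534 lower. The lipid storage list had none higher and 5 lower, and the muscle, cartilage and neural lists none and 1 each. Measured from the median of all genes in that setting, the medians of these lists were 0.09, 0.15, 0.13 and -0.01 (log2). The endothelial list then had 3 lower. The mean level of the cartilage list was 5.46 to 6.06 on knockout and 5.42 to 5.96 on wild-type arrays, and that of the muscle list 5.92 to 6.14 and 5.85 to 6.00, so both overlapped. Of 15 general fibroblast markers 1 was higher, Fn1, and 1 lower, Pdgfra, a growth factor receptor (-0.38 ± 0.07), whose other kept probe was not called.

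Few metabolic and stress genes were called after quantile normalization, where 5.26% of all genes tested were higher and 6.12% lower. With a common median over all probes 141 of all 10902 genes were higher and 3534 lower, and with one over tested genes 1383 and 561. Of 23 sterol and fatty acid synthesis genes none was higher and 2 were lower (0 and 14 with a common median over all probes), the elongases Elovl6 (-0.35 ± 0.07) and Elovl5 (-0.31 ± 0.07). Of 16 interferon response genes 1 was lower, and of 23 chaperone and unfolded protein genes 1 was higher, the stress factor Ddit3 (0.52 ± 0.09). Genes close to the deleted locus were counted by gene order and in a list drawn up by name. By gene order in GRCm38.p6, 5 of the 50 nearest tested genes, 25 on each side of Dusp5, were called (10.0%, against 11.4% of all genes), 1 higher and 4 lower (0 and 17 with a common median over all probes, 7 and 4 over tested genes). Add3, an adducin of the membrane skeleton, differed most among these 50 (-0.38 ± 0.06, adjusted p = 3.72e-04). In the list by name 3 of 15 tested neighbours were called (20%), none higher and 3 lower, with a median of -0.08 (log2). The counts were 0 and 8 with a common median over all probes and 1 and 3 over tested genes.

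Promoters were read for letters that factors downstream of ERK and of the cell cycle bind. RefSeq windows of GRCm38.p6, from 250 bases before to 50 after the start of a gene, were at hand for 8823 of the tested genes. The AP-1 letters TGANTCA, searched on both strands, stood in 6.71% of all 8823 genes' windows, in 12% of those of genes higher in knockout cells (50 of 418) and in 5.88% of those of genes lower (32 of 544). Among genes higher by at least 1.5-fold 7 of 28 held them. The E2F letters TTTNNCGC, a motif chosen after the cell cycle result was seen, stood in 9.71% of all, in 8.37% of higher (35 of 418) and in 14.9% of lower genes (81 of 544), in 16 of 37 tested members of the cell cycle list with a window (43.2%) and in 11 of its 22 called members. Windows were at hand for some of the 12 largest genes in each direction with groups apart at each time. Of these, Serpinb2, Uts2b, Ivl and Igfbp2, all higher, and Diras2, which was lower, held the AP-1 letters. The windows of the first 3 are printed for these letters, and that of Cdc6 for the E2F letters, with the matched letters in capitals.
Serpinb2, chr1:107511173-107511472, plus strand: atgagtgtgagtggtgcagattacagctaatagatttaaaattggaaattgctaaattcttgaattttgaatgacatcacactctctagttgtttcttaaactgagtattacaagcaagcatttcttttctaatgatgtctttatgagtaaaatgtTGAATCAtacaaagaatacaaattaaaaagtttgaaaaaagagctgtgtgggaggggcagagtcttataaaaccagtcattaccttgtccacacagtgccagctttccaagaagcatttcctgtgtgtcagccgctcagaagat
Uts2b, chr16:27370190-27370489, minus strand: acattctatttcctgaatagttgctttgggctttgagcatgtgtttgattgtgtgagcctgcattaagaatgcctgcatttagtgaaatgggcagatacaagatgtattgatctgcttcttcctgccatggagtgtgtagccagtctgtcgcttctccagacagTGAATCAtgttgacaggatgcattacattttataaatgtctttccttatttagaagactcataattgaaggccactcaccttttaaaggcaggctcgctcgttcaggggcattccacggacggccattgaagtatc
Ivl, chr3:92573686-92573985, minus strand: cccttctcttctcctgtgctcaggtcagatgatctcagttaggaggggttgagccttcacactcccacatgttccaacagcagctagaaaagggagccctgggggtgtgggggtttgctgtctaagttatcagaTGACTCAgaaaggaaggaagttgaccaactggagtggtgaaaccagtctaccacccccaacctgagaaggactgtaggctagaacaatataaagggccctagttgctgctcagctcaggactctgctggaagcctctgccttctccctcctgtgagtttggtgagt
Cdc6, chr11:98907901-98908200, plus strand: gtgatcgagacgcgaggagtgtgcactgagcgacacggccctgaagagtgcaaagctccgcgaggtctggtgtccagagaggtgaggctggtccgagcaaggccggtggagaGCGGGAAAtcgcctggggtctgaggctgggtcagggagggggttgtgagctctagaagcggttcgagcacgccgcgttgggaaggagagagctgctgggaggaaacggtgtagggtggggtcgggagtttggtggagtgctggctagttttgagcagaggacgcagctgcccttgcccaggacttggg
The match begins at position -94, -86, -116 and -138 from the annotated start in these 4 windows, in the order printed, and in Cdc6 it is read on the opposite strand. A match is a description of the letters and not of a bound site.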

How the data were processed

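The authors deposited a table that gives, per the file headers, the intensity of every probe on a linear scale and beside it a detection p-value, and a table of normalized log2 values of the same arrays, used here as an alternative. How the authors made the intensities, and the array's genome build, were not given in the sources used here. RNA was biotinylated and amplified before hybridization, per the labels' protocols. Here the background was removed by normexp, fitted through the detection p-values, then an offset of 16 was added, arrays were quantile normalized and log2 was taken (limma 3.58.1, R 4.3.3). Of 45281 probes 20239 were kept, 17288 of them with 1 gene symbol and 2951 without. GEO's platform annotation was updated through Entrez identifiers for 34807 of 34885 probes.

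The 18 arrays entered 1 linear model with a mean for each of 6 groups and moderated variances. Contrasts were the mean genotype difference, genotype by time (joint F test over 1 and 3 h) and the TPA response as the mean of both genotypes (joint F test), each adjusted by Benjamini-Hochberg over 10902 genes. The number of arrays limits the precision.

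Named genes are Dusp5, Serpinb2, the 12 largest called mean differences in each direction with groups apart at each time, the 6 smaller than 1.5-fold with the largest moderated statistic in each direction, the 8 with the largest statistic for genotype by time, and at most 4 called genes from any list. Klf2, Klf4, Krt18 and Hoxb2 were chosen after their values were seen, and so was the Cdc6 promoter. Clone names, 25 among the called genes, were counted only. The members and lists were chosen with earlier results of these data known. Replicate numbers were not taken to pair the arrays, since the labels do not say what a number shares and same-numbered arrays did not all deviate together. Over 45 pairs of same-numbered arrays of different groups, deviations from the group means correlated at -0.08 to 0.43 (median 0.04), and 10 exceeded 0.1, against 6 of 90 pairs with different numbers (median -0.03). All 3 pairs of knockout 3 h with wild-type 0 h arrays were among the 10. No arrays held identical values. In simulated data with independent normal noise, mean shifts of 0.1, 0.25 and 0.5 (log2) were called in 0%, 44% and 100% of shifted genes. Genotype by time shifts of 0.5 and 1 were called in 8% and 96%. False calls made up 4.69% and 3.7% of the calls. The simulated arrays shared no deviations, unlike some of the same-numbered arrays here. Alternatives were the deposited log2 values, no background correction, 2 median scalings, a stricter and no detection filter, the mean of probes, a variance trend, array weights, an additive model, a replicate block, a 1.5-fold threshold and each array left out.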

Additional observations from a re-analysis of the deposited data

Results flagged for a closer look

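In 16 genes named here the genotype difference itself changed over the times, by limma's joint test of genotype by time adjusted over all genes. The adjusted p was 5.05e-08 for Car2, 5.05e-08 for Dusp2, 2.09e-07 for Egr4, 2.03e-06 for Arc and 1.44e-05 for Sstr2. It was 5.58e-05 for Slpi, 2.11e-04 for Egr1 and 2.11e-04 for Fam83g. Among members of the lists it was 9.64e-04 for the cytokine Il1a, 0.00173 for the growth factor Csf2, 0.00634 for Egr3 and 0.00837 for Fosb. It was 0.00874 for the neurotrophic factor Gdnf, 0.0103 for the cytokine Il11, 0.0103 for Serpinb2 and 0.0154 for the sulfiredoxin Srxn1.

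Serpinb2 differed from the other 15 in its level before TPA, where its difference was 1.24 (log2), while theirs at 0 h lay between -0.15 in Sstr2 and 0.31 in Slpi. In 15 of the 16 the value at 3 h was the largest. In Csf2 the differences were 0.01, 1.10 and 0.66 at 0, 1 and 3 h. The cause was not tested.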

How the results depend on the processing

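The count of 1240 genes called for the mean became 3675 with median scaling over all probes, 1944 with median scaling over the tested genes and 66 with the added 1.5-fold threshold. It lay between 1051 and 1249 when each array was left out in turn. No gene of the 1240 was called in the opposite direction under the settings tried, but 68 changed sign with scaling over all probes, 3 with scaling over tested genes and 1 with the mean of probes, and 806 to 1219 were still called. The 29 genes called for genotype by time became 83 with array weights, and lay between 18 (without wild-type 3 h array 1) and 33 when single arrays were left out, with 19 without knockout 3 h array 3. The 3045 genes called for TPA became 5715 with median scaling over all probes, and lay between 2745 and 3051 when single arrays were left out. With the replicate number as a block the counts were 1328, 32 and 3189. The labels do not say that equal numbers pair the arrays. The causes were not tested. With genes split evenly into 4 bins by level, 4.11% of the dimmest were called, against 14.2%, 15.3% and 11.9% in the brighter bins, and the median standard error was 0.0793 in the dimmest, against 0.0760, 0.0642 and 0.0578 (log2).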
